A study of Sus scrofa with 11 samples.

Results

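The nuclear genes for the respiratory chain were followed across 4 groups of pig hearts. They were taken as every probe set whose single gene symbol in the array annotation began with NDUF, SDHA, SDHB, SDHC, SDHD, UQCR or ATP5, or with COX and a digit from 4 to 8. The rule found 68 of 27558 probe sets, which named 62 genes. Of these, 51 genes encode subunits: 31 of complex I, 1 of complex II, 2 of complex III, 6 of complex IV and 11 of complex V. The other 11 genes are counted apart. They are the assembly factors NDUFAF1, NDUFAF3, NDUFAF4, NDUFAF5, NDUFAF6, NDUFAF7, ATP5SL, SDHAF1 and SDHAF2, the coupling factor B gene ATP5S, and NDUFA4L2, a relative of NDUFA4.

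Complexes I to IV of the inner mitochondrial membrane pass electrons from NADH and succinate to oxygen, and complexes I, III and IV pump protons as they do so. Complex V, the ATP synthase, lets the protons flow back through its membrane part, Fo, and makes ATP in its head, F1. The heart takes most of its ATP from this chain. Apart from a few core subunits encoded in mitochondrial DNA, the subunits are made from nuclear genes and imported.

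All animals were intact male Yorkshire swine with an ameroid constrictor, a ring that slowly closes the vessel, on the left circumflex coronary artery. They ate a high fat diet (HFD) or a normal diet (ND) for 12 weeks, and the ischemic territory was injected with EV (extracellular vesicles, small membrane-bound particles that cells shed) or with vehicle. Tissue of the ischemic zone of the left ventricle was taken 5 weeks later. HFD+EV had 3 arrays (high fat diet, EV), HFD 2 (high fat diet, vehicle), ND+EV 3 (normal diet, EV) and ND 3 (normal diet, vehicle). Every group therefore carries the constrictor and an injection, so no group shows a heart without ischemia. The sources used here give neither the source of the EV nor the age of the animals. Samples of 1 group are labelled as biological replicates without naming an animal, so the p-values measure the spread between these samples.

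Values are normalized log2 signal per probe set, as the authors deposited them, and the number of arrays limits their precision. The level of a probe set depends on its probes, so no gene's level is set against another's. Coordinates are not used here, because the sources used here do not give the genome build. Among the member probe sets, 66 passed a filter that left out the lowest 25% by mean signal (below 3.63), and both probe sets of SDHAF1 did not. The differences below come from limma, fitted to all 20668 probe sets above that filter with Benjamini-Hochberg adjustment over all of them and a threshold of 0.05. Differences are on the log2 scale and carry the standard error (SE) of the fit.

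The tissue was taken from the left ventricle, and the cardiomyocyte markers had a high mean signal on all arrays. The atrial light chain gene MYL7 was measured too, at 6.35 to 9.79, so these markers do not tell the chamber. The ventricular light chain gene MYL2 had a mean log2 signal of 13.00, and the mean over 9 of the 12 cardiomyocyte markers listed lay between 10.7 and 11.2 on all arrays. ND replicates 1 and 3 stood apart, with mean correlations to the other arrays of 0.946 and 0.952. The 9 remaining arrays had 0.965 to 0.972. The SD of log2 signal was 1.45 and 1.47 on the ND pair and 1.50 to 1.62 elsewhere. For the comparisons with ND, the medians of the subunits and of each complex, and the differences of several genes, are also given without them.

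The subunit genes were lowest in ND and moved together over the arrays. The mean deviation of the 51 subunit genes from their own means over all arrays was -0.25, 0.47 and 0.34 in HFD+EV and 0.34 and 0.21 in HFD. It was 0.077, 0.31 and 0.11 in ND+EV and -1.12, -0.14 and -0.36 in ND. All 3 ND arrays lay below 0, and HFD+EV replicate 1 was the only array of the other groups to do so. ND had the lowest group mean for 45 of the 51 genes. The exceptions were ATP5L, NDUFA10 and NDUFS8, lowest in HFD+EV, and NDUFA3, NDUFB7 and UQCR10, lowest in HFD. The highest group mean was in HFD+EV for 8 genes, in HFD for 30, in ND+EV for 13 and in ND for 0.

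**Figure D1:**
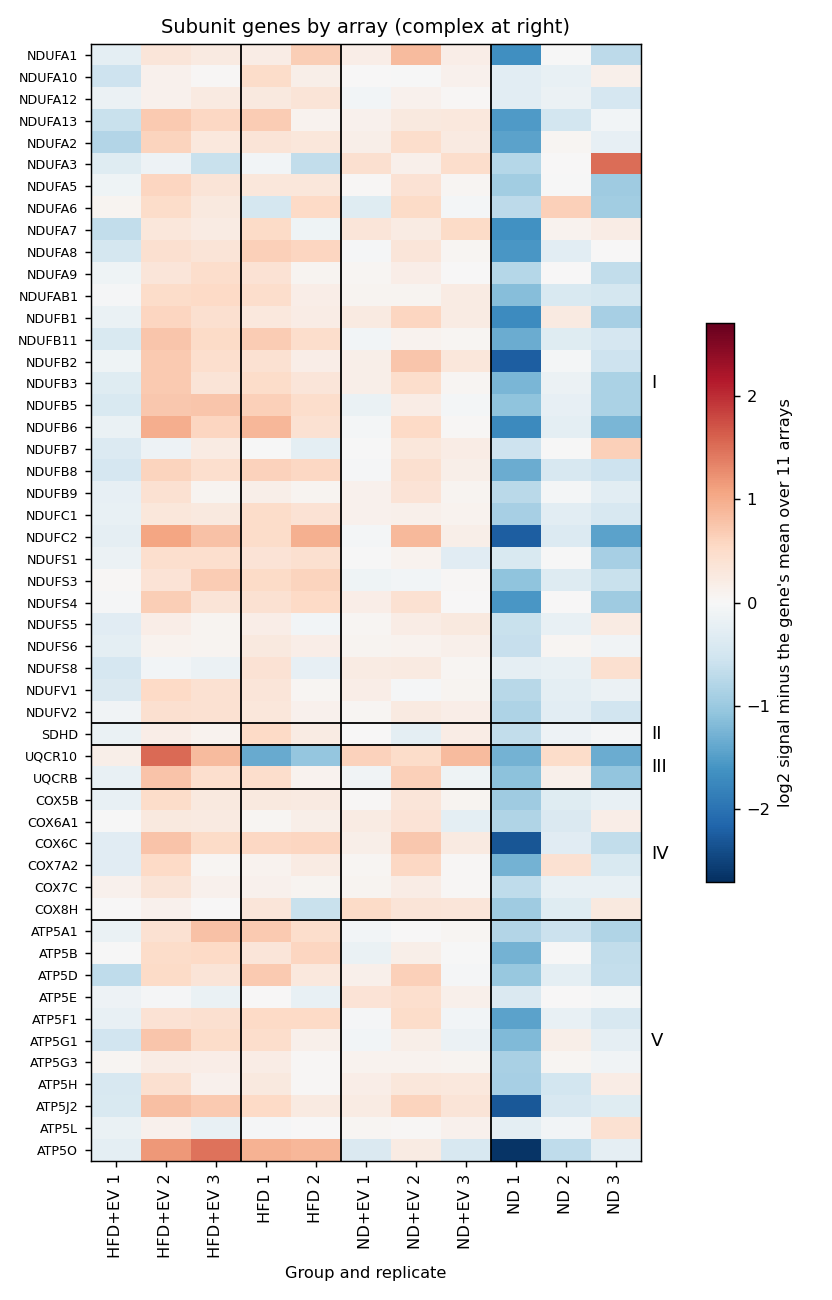
Log2 signal of each of the 51 subunit genes (rows, grouped by complex at the right) on each of the 11 arrays (columns, by group and replicate), as the deviation from the gene's mean over all arrays. Blue is below and red above that mean. ND replicate 1 is the lowest array for 43 of the 51 genes, and UQCR10 of complex III is high in HFD+EV and ND+EV and low in HFD.

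ND replicate 1 was the lowest of all 11 arrays for 43 of the 51 genes, ND replicate 3 for 5, HFD+EV replicate 1 for 2 and HFD replicate 1 for 1. HFD+EV replicate 2 was the highest array for 22 genes. The spread within groups differed accordingly: the median SD over the 51 genes was 0.36 in HFD+EV, 0.15 in HFD, 0.16 in ND+EV and 0.55 in ND. Across the 11 arrays, a gene's correlation with the mean of the other subunit genes had a median of 0.914 and exceeded 0.8 for 37 of 51 genes (72.5%). Of all probe sets tested, 5.45% exceeded 0.8 with the subunit mean. Without ND replicate 1 the median was 0.844, with 30 of 51 genes (58.8%) above 0.8, against 3.18% of all probe sets. These correlations are descriptions over arrays that share their normalization and group differences.

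The subunit genes closest to the common pattern were COX6C (r = 0.990), ATP5J2 (0.982) and COX5B (0.977). COX6C and COX5B are nuclear subunits of cytochrome c oxidase, complex IV, and ATP5J2 encodes subunit f of the ATP synthase. The farthest were NDUFA3 (0.0038), ATP5L (0.207), NDUFS8 (0.255), NDUFB7 (0.346) and UQCR10 (0.469). NDUFS8 is an iron-sulfur core subunit of complex I, ATP5L encodes subunit g of the ATP synthase, and NDUFA3 and NDUFB7 are accessory subunits of complex I. In NDUFA3 the log2 signal was 7.80, 7.99 and 7.52 in HFD+EV, 8.06 and 7.47 in HFD, 8.57, 8.27 and 8.60 in ND+EV and 7.35, 8.14 and 9.64 in ND. Its highest array was thus ND replicate 3, where the mean deviation of all subunit genes was -0.36. The genes counted apart had a median correlation of 0.429.

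By complex, the pattern was alike in I, IV and V and differed in II and III. The mean deviation of the 31 complex I genes was -0.28, 0.44 and 0.33 in HFD+EV, 0.38 and 0.25 in HFD, 0.065, 0.31 and 0.12 in ND+EV and -1.09, -0.13 and -0.39 in ND. That of the 11 complex V genes was -0.27, 0.48 and 0.42 in HFD+EV, 0.43 and 0.28 in HFD, 0.027, 0.29 and 0.026 in ND+EV and -1.19, -0.23 and -0.26 in ND. The 6 complex IV genes had -0.12, 0.42 and 0.20 in HFD+EV, 0.24 and 0.11 in HFD, 0.18, 0.42 and 0.076 in ND+EV and -1.16, -0.19 and -0.17 in ND. In these 3 complexes all ND arrays lay below every HFD and ND+EV array. SDHD, the 1 gene measured for complex II, had -0.17, 0.18 and 0.094 in HFD+EV, 0.53 and 0.23 in HFD, 0.019, -0.26 and 0.20 in ND+EV and -0.65, -0.13 and -0.042 in ND. Its ND arrays were below both HFD arrays, but ND+EV replicate 2 was below ND replicates 2 and 3. The 2 complex III genes had -0.018, 1.15 and 0.66 in HFD+EV, -0.44 and -0.48 in HFD, 0.26, 0.57 and 0.37 in ND+EV and -1.19, 0.32 and -1.20 in ND. In complex III both HFD arrays were below every array of the EV groups, and ND replicate 2 stood with the EV groups. The low HFD values came from UQCR10, whose group mean was lowest in HFD. That of UQCRB, the other gene, was lowest in ND, as for most genes of the other complexes.

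**Figure D2:**
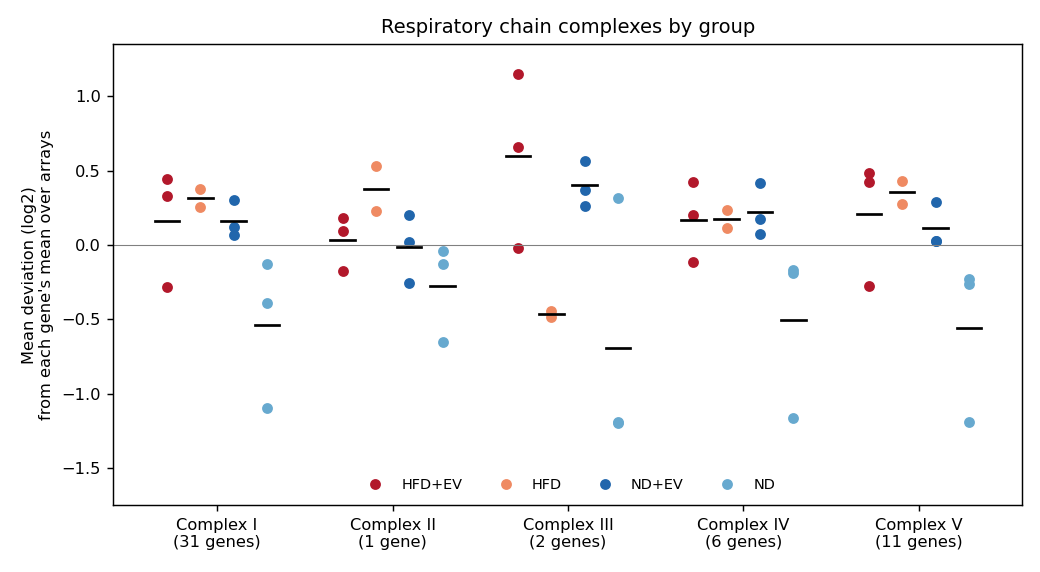
Mean deviation of the subunit genes of each complex from their means over all arrays (log2, vertical axis), with a point for each array and a bar at the group mean, for HFD+EV, HFD, ND+EV and ND. Complexes I, IV and V have all ND points below those of HFD and ND+EV, while in complex III, which rests on 2 genes, the HFD points lie near -0.46.

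The first comparison asks what the high fat diet changed in vehicle-injected hearts. ATP5A1, the catalytic-head subunit alpha of the ATP synthase, NDUFS3, a core subunit of the matrix arm of complex I, and NDUFAF4, a complex I assembly factor, rose in HFD relative to ND. They were the 3 of 66 member probe sets past the threshold, or 4.55%, against 0.735% of all probe sets tested (0.513% higher and 0.223% lower). Across the subunit genes 47 of 51 had a higher mean in HFD, with a median difference of 0.83. The median over all probe sets was -0.022, and that over the 25% of probe sets with the highest signal, which holds 53 of the 66 member probe sets, was 0.28. In that top 25% a share of 72.9% was higher in HFD. At an unadjusted p under 0.05 there were 35 member probe sets, against 24% of all probe sets tested.

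ATP5A1 (probe set 15185251) had a log2 signal of 11.45 and 11.22 in HFD, against 9.95, 10.17 and 9.93 in ND. Both HFD arrays were above all ND arrays, and the difference was 1.32 ± 0.23 (SE), a fold of 2.50 (limma adjusted p = 0.0471). NDUFS3 (probe set 15254791) had 8.75 and 8.84 in HFD, against 7.15, 7.88 and 7.63 in ND, a difference of 1.24 ± 0.23 (limma adjusted p = 0.0471). For this gene too the groups did not overlap. NDUFAF4 (probe set 15193271) had 5.06 and 4.86 in HFD, against 4.02, 4.09 and 4.20 in ND, a difference of 0.86 ± 0.16 (limma adjusted p = 0.0471). In ND+EV NDUFAF4 had 4.22, 3.98 and 4.29, which overlapped ND. Without ND replicates 1 and 3 the differences were 1.16 for ATP5A1, 0.91 for NDUFS3 and 0.87 for NDUFAF4, and none passed.

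These calls sat at the threshold. Of 22 alternative settings ATP5A1 and NDUFS3 passed in 5, with adjusted p between 0.0213 and 0.306 and between 0.0213 and 0.300, and NDUFAF4 passed in 4 of 21. Leaving out ND replicate 2 or HFD+EV replicate 1 raised the member probe sets called to 23 and 13, and leaving out any other single array left 0.

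In complex I 29 of 31 genes were higher in HFD, with a median of 0.95, of which NDUFS3 passed. The 13 genes of the matrix arm, which takes electrons from NADH, had a median of 0.72, and the 17 of the membrane arm, which pumps protons, had a median of 1.16. NDUFC2 and NDUFC1 are accessory subunits of the membrane arm. NDUFC2 had 7.53 and 8.0 in HFD, against 4.81, 6.68 and 5.61 in ND, a difference of 2.07 ± 0.52 (limma adjusted p = 0.0712). NDUFC1 had 6.39 and 6.29 in HFD, against 5.0, 5.61 and 5.46 in ND, a difference of 0.98 ± 0.20 (limma adjusted p = 0.0557). In both genes the groups did not overlap, and neither passed the threshold. Without ND replicates 1 and 3 NDUFC2 differed by 1.09 and NDUFC1 by 0.73. The core subunits NDUFS1 (0.83, adjusted p = 0.101) and NDUFV1, which binds NADH (0.58, adjusted p = 0.210), did not pass either. NDUFA3 and NDUFB7 were the complex I genes with a lower mean in HFD, at -0.61 and -0.16, and did not pass.

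In complex V 10 of 11 genes were higher in HFD, with a median of 1.10, and ATP5A1 passed. ATP5B, the catalytic beta subunit and partner of ATP5A1 in the F1 head, had 10.81 and 11.06 in HFD, against 9.21, 10.48 and 9.82 in ND (1.10 ± 0.31, limma adjusted p = 0.0807). ATP5F1, subunit b of the peripheral stalk that holds the head in place, had 8.60 and 8.58 in HFD, against 6.60, 7.84 and 7.63 in ND (1.23 ± 0.34, limma adjusted p = 0.0787). In both genes the HFD arrays were above all ND arrays. ATP5O, the stalk subunit that joins the stalk to the head, had a difference of 2.11 ± 0.65 (limma adjusted p = 0.0954), the widest of the subunit genes with all arrays. It had 7.72 and 7.70 in HFD, against 4.14, 6.10 and 6.54 in ND, and ND replicate 1 lay far below the other ND arrays. Without that array the ATP5O difference was 1.39, and NDUFC2 was the widest at 1.62. ATP5E, the small epsilon subunit of the central stalk, and ATP5L had differences of 0.05 and -0.04.

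All 6 complex IV genes were higher in HFD, with a median of 0.52, and none passed. COX6C had 9.15 and 9.18 in HFD, against 6.30, 8.30 and 7.95 in ND, a difference of 1.65 ± 0.50 (limma adjusted p = 0.0945), and without ND replicate 1 it was 1.04. COX5B, a zinc-binding subunit, had 10.43 and 10.40 in HFD, against 9.20, 9.84 and 9.97 in ND, a difference of 0.74 ± 0.24 (limma adjusted p = 0.110). The HFD arrays of both were above all ND arrays. COX6A1 and COX7A2, the isoforms found in most tissues, differed by 0.45 and 0.59, and COX8H, the heart form of COX8, by 0.20. Their groups overlapped. In complex II SDHD, a membrane anchor of succinate dehydrogenase, had 9.26 and 8.96 in HFD, against 8.07, 8.60 and 8.69 in ND (0.65 ± 0.21, limma adjusted p = 0.107).

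Complex III, which hands electrons from ubiquinol to cytochrome c, was split. UQCRB, a subunit at its ubiquinone site, had 10.05 and 9.66 in HFD, against 8.47, 9.71 and 8.51 in ND (0.96 ± 0.40, limma adjusted p = 0.181). UQCR10, a small accessory subunit, had 7.25 and 7.55 in HFD, against 7.33, 9.10 and 7.27 in ND (-0.50 ± 0.51, limma adjusted p = 0.573). In both genes the groups overlapped, and both values turned on which ND arrays were used. Without ND replicates 1 and 3 the difference was 0.15 for UQCRB and -1.70 for UQCR10, and without ND replicate 2 it was 0.10 for UQCR10.

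Without a threshold on p, 40 of the 66 member probe sets had both HFD arrays above all ND arrays and 0 had both below, against 19.4% and 19.7% of all probe sets tested. Without ND replicate 1 the median over the 51 subunit genes was 0.59, with 44 genes higher, and without ND replicates 1 and 3 it was 0.46, with 45 higher. Without ND replicate 1 the complex medians were 0.61 in complex I, 0.26 in complex IV, with 5 of 6 higher, and 0.77 in complex V. Without ND replicates 1 and 3 they were 0.45, 0.40 and 0.64. Of the 51 genes, 23 had a difference over 1.5 times smaller or of the other sign without ND replicate 1, and 29 without ND replicates 1 and 3. The median over the member probe sets, 0.69 as reported, was 0.41 after quantile normalization and 0.37 after cyclic loess. Markers of some other cell types moved in the same direction: all 6 measured fibroblast markers were higher in HFD (median 0.88). Their mean log2 signal was 8.96 and 9.72 on the HFD arrays and 7.82 to 9.02 in ND. The 4 atrial markers also had higher means (median 1.31), at 6.04 and 7.23 in HFD and 4.99 to 6.05 in ND. MYL4 differed by only 0.00053, and HFD replicate 2 carried much of the SLN and NPPA values. SLN had 3.77 and 6.73 in HFD, against 3.18, 3.46 and 3.77 in ND. NPPA had 7.15 and 9.27 in HFD, against 6.35, 6.71 and 6.67 in ND. Also higher were 4 of 5 smooth muscle and pericyte markers (median 0.50) and all 5 endothelial markers (median 0.24). The 9 cardiomyocyte markers had a median of 0.30, with 6 higher, and 4 of 5 macrophage markers were higher (median 0.41). Of the lymphocyte markers tested 1 of 4 was higher (median -0.040). The adipocyte (median -0.13) and red cell markers (median -0.40) had 0 of 2 higher in each set. None of these markers passed, and their part in the subunit differences was not tested. In whole tissue, fewer cells of a type and less RNA per cell cannot be told apart.

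**Figure D3:**
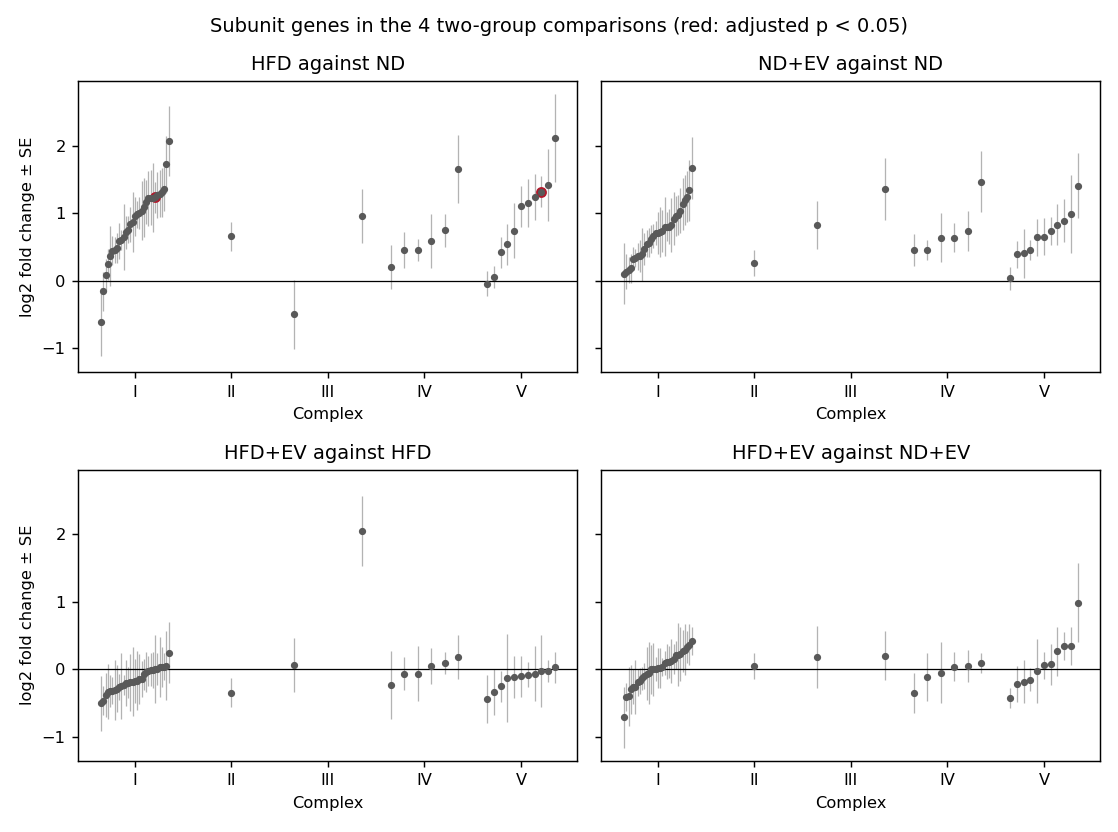
Log2 difference of each subunit gene with its SE (vertical axis), sorted within complexes I to V (horizontal axis), in the 4 comparisons of 2 groups. Red rings mark ATP5A1 and NDUFS3 in HFD against ND, the subunit genes past an adjusted p of 0.05. Most points lie above 0 in both upper panels, which share the ND arrays, and around 0 in both lower panels, where UQCR10 stands at 2.05 in HFD+EV against HFD.

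The next comparison asks what EV did under the normal diet. All 51 subunit genes had a higher mean in ND+EV than in ND, with a median difference of 0.70, and 0 passed the threshold of limma, where 0 of all 20668 probe sets passed (0%). At an unadjusted p under 0.05 there were 32 member probe sets, against 8.51% of all probe sets tested. This comparison shares the ND arrays with that of HFD and ND, so the pair are not independent of each other. Of the 25% of probe sets with the highest signal 61.4% were higher in ND+EV, with a median of 0.096.

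NDUFV2 and NDUFAB1 had the smallest unadjusted p in complex I. NDUFV2, an iron-sulfur core subunit beside NDUFV1, had 8.83, 9.01 and 8.95 in ND+EV, against 7.94, 8.48 and 8.26 in ND (0.70 ± 0.18, limma adjusted p = 0.539). NDUFAB1, the mitochondrial acyl carrier protein that sits in both arms, had 8.54, 8.53 and 8.68 in ND+EV, against 7.32, 8.04 and 7.99 in ND (0.80 ± 0.21, limma adjusted p = 0.539). In both genes the groups did not overlap. The complex I median was 0.71, with 0.56 in the matrix arm and 0.73 in the membrane arm, and NDUFC2 was the widest subunit gene with all arrays (1.67 ± 0.46, limma adjusted p = 0.539). Without ND replicates 1 and 3 NDUFC2 differed by 0.69 and ATP5J2 was the widest, at 0.81.

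In complex V the median was 0.65. ATP5A1 had 10.67, 10.77 and 10.80 in ND+EV, against 9.95, 10.17 and 9.93 in ND (0.73 ± 0.21, limma adjusted p = 0.539). ATP5E had 9.98, 10.06 and 9.74 in ND+EV, against 9.22, 9.63 and 9.57 in ND (0.45 ± 0.14, limma adjusted p = 0.548). Both genes were higher on every ND+EV array than on any ND array. The 2 genes differed in their HFD levels: for ATP5E the HFD arrays had 9.63 and 9.42, which overlap those of ND.

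In complex IV the median was 0.64. COX6C had 8.77, 9.33 and 8.85 in ND+EV, against 6.30, 8.30 and 7.95 in ND (1.47 ± 0.45, limma adjusted p = 0.548). COX7C, a small accessory subunit, had 10.30, 10.43 and 10.27 in ND+EV, against 9.56, 10.04 and 10.03 in ND (0.46 ± 0.15, limma adjusted p = 0.548). In neither gene did the groups overlap. COX8H had 9.22, 9.05 and 9.03 in ND+EV, against 7.74, 8.37 and 8.97 in ND (0.74 ± 0.29, limma adjusted p = 0.570). In complex III UQCR10 had 9.23, 9.10 and 9.45 in ND+EV, against 7.33, 9.10 and 7.27 in ND (1.36 ± 0.46, limma adjusted p = 0.548), so ND replicate 2 was level with the lowest ND+EV array. UQCRB differed by 0.82 ± 0.36 (limma adjusted p = 0.580) and SDHD of complex II by 0.26 ± 0.19 (limma adjusted p = 0.698), both with overlapping groups. Without ND replicates 1 and 3 these differences were 0.16 for UQCR10, 0.0086 for UQCRB and 0.12 for SDHD.

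Of the member probe sets 35 of 66 were higher on every ND+EV array than on any ND array, against 6.32% of all probe sets, and 0 were lower on every array, against 5.31%. Without ND replicate 1 the median over the subunit genes was 0.40 with 48 of 51 higher, and without ND replicates 1 and 3 it was 0.34 with 47 higher. Without ND replicate 1 the complex medians were 0.41 in complex I, 0.35 in complex IV and 0.33 in complex V, and without ND replicates 1 and 3 they were 0.34, 0.49 and 0.34. Of the 51 genes, 33 had a difference over 1.5 times smaller or of the other sign without ND replicate 1, and 37 without ND replicates 1 and 3. The median over the member probe sets was 0.63 as reported, 0.43 after quantile normalization and 0.39 after cyclic loess. The 6 fibroblast markers (median 0.37) and the 5 measured macrophage markers (median 0.50) were all higher in ND+EV as well. The mean log2 signal of the macrophage markers was 6.11 to 6.55 in ND+EV and 5.41 to 6.03 in ND. Of the cardiomyocyte markers 7 of 9 were higher (median 0.083). Other sets did not rise as a whole. Of the smooth muscle and pericyte markers 1 of 5 was higher (median -0.29), and of the endothelial markers 2 of 5 (median -0.081). Of the atrial and lymphocyte markers tested 2 of 4 were higher in each set, and of the adipocyte and red cell markers 0 of 2. None of these markers passed, and their part in the result was not tested.

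The third comparison asks what EV did under the high fat diet. In HFD+EV against HFD 13 of 51 subunit genes were higher and 38 lower, with a median of -0.11, and 0 of the 20668 probe sets passed the threshold of limma (0%). Of the 25% of probe sets with the highest signal, 36.8% were higher, with a median of -0.077, so the subunit median lay near this background. At an unadjusted p under 0.05 there were 2 member probe sets, UQCR10 and NDUFAF4, against 5.54% of all probe sets. The complex medians were -0.17 in complex I, -0.0083 in complex IV and -0.11 in complex V. HFD+EV replicate 1 weighed on this direction: without it the median over the subunit genes was 0.11, with 36 of 51 higher.

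UQCR10 (probe set 15225218) had the widest difference of the subunit genes. Its log2 signal was 8.76, 10.13 and 9.46 in HFD+EV, against 7.25 and 7.55 in HFD. Every HFD+EV array was above both HFD arrays, and the difference was 2.05 ± 0.51, a fold of 4.14 (limma adjusted p = 0.575), which did not pass. Over 22 alternative settings the difference lay between 1.71 and 2.39 and passed in 0. The next highest subunit genes were NDUFA6 at 0.25 and COX8H at 0.18. UQCRB, the other complex III gene, had 9.37, 10.35 and 10.04 in HFD+EV, against 10.05 and 9.66 in HFD (0.07 ± 0.40, limma adjusted p = 0.995).

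**Figure D4:**
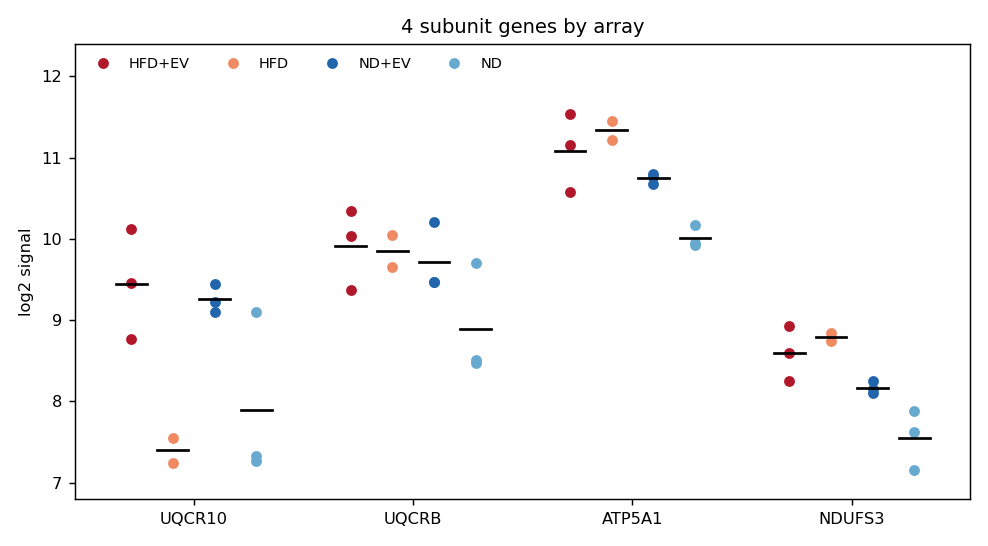
Log2 signal (vertical axis) of UQCR10, UQCRB, ATP5A1 and NDUFS3 on each array, with a bar at the group mean, for HFD+EV, HFD, ND+EV and ND. Levels of different genes are not comparable. UQCR10 lies between 8.76 and 10.13 on the EV arrays and at 7.25 and 7.55 in HFD, whereas ATP5A1 and NDUFS3 are highest on average in HFD and lowest in ND.

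Several other members were lower on every HFD+EV array than on both HFD arrays, without passing. NDUFA10, an accessory subunit of complex I, had 6.71, 7.38 and 7.29 in HFD+EV, against 7.76 and 7.42 in HFD (-0.47 ± 0.21, limma adjusted p = 0.902). SDHD had 8.55, 8.91 and 8.82 in HFD+EV, against 9.26 and 8.96 in HFD (-0.35 ± 0.21, limma adjusted p = 0.915). NDUFAF4 had 4.35, 4.32 and 4.73 in HFD+EV, against 5.06 and 4.86 in HFD (-0.50 ± 0.16, limma adjusted p = 0.774). In total 11 of 66 member probe sets were lower on every array, against 11% of all probe sets, and 1 was higher, against 12.2%. ATP5D, the delta subunit of the central stalk, had the widest lower mean in complex V (-0.44 ± 0.36, limma adjusted p = 0.938), with overlapping groups. The atrial markers were lower in HFD+EV (0 of 4 higher, median -1.41), at 5.44 to 5.59 against 6.04 and 7.23 in HFD. In SLN this rested on HFD replicate 2 (6.73), since HFD replicate 1 (3.77) overlapped HFD+EV (3.94, 3.77 and 3.73). All 6 fibroblast markers (median -0.27) and 4 of 5 smooth muscle and pericyte markers (median -0.34) were also lower. So were 4 of 5 endothelial markers (median -0.063), 6 of 9 cardiomyocyte markers (median -0.072) and 2 of 2 adipocyte markers (median -0.016). In contrast, 4 of 5 macrophage markers (median 0.26) and 3 of 4 lymphocyte markers tested (median 0.11) were higher. The red cell markers had 2 of 2 higher (median 0.18). The mean log2 signal of the fibroblast markers was 8.60 to 9.35 in HFD+EV, against 8.96 and 9.72 in HFD, and that of the smooth muscle and pericyte markers 6.27 to 6.80 in HFD+EV, against 6.60 and 7.09 in HFD. None of these markers passed, and their part was not tested.

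Between the diets under EV, the subunit genes lay on both sides of 0. In HFD+EV against ND+EV 30 of 51 were higher and 21 lower, with a median of 0.038, and 0 of 20668 probe sets passed the threshold of limma (0%). At an unadjusted p under 0.05 there were 2 member probe sets, against 7.36% of all probe sets. Without HFD+EV replicate 1 the subunit median was 0.26, with 41 genes higher. The median over the member probe sets, 0.042, turned to -0.0057 after quantile normalization and to -0.045 after cyclic loess.

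ATP5E was lower on every HFD+EV array, with 9.47, 9.59 and 9.43 against 9.98, 10.06 and 9.74 in ND+EV (-0.43 ± 0.14, limma adjusted p = 0.596). ATP5O had 6.52, 7.96 and 8.25 in HFD+EV, against 6.39, 7.01 and 6.36 in ND+EV (0.99 ± 0.58, limma adjusted p = 0.733), the widest difference toward HFD+EV among the subunit genes. NDUFS3 differed by 0.42 ± 0.20 (limma adjusted p = 0.690) and its fellow core subunit NDUFS8 by -0.41 ± 0.21 (limma adjusted p = 0.704). COX8H had 8.71, 8.83 and 8.71 in HFD+EV, against 9.22, 9.05 and 9.03 in ND+EV (-0.35 ± 0.29, limma adjusted p = 0.808). ATP5E and COX8H were among 5 member probe sets, of 4 genes, lower on every HFD+EV array, against 6.93% of all probe sets. On every array 2 were higher, against 7.58%. The 95% interval of the difference ran from -0.12 to 0.80 for ATP5A1, from -0.27 to 0.95 for ATP5B and from -1.05 to 0.94 for COX6C.

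Whether EV acted differently under the diets was tested as the EV effect under the high fat diet less that under the normal diet. This difference was negative for 50 of 51 subunit genes, with a median of -0.76, and 0 of 20668 probe sets passed the threshold of limma (0%). Of the 25% of probe sets with the highest signal 33.8% were positive, with a median of -0.17. At an unadjusted p under 0.05 there were 20 member probe sets, against 8.42% of all probe sets tested. UQCR10 was the subunit gene with a positive value (0.69 ± 0.69, limma adjusted p = 0.782). The genes with the smallest p of their complex were NDUFC1 (-0.98 ± 0.27, limma adjusted p = 0.572), COX6C (-1.70 ± 0.68, limma adjusted p = 0.572) and ATP5A1 (-0.98 ± 0.31, limma adjusted p = 0.572). For complexes II and III they were SDHD (-0.61 ± 0.29, limma adjusted p = 0.593) and UQCRB (-0.75 ± 0.54, limma adjusted p = 0.693). Both EV effects enter this value, and the ND arrays weigh on it: the subunit median was -0.52 without ND replicate 1, -0.46 without ND replicates 1 and 3 and -0.29, with 40 of 51 genes negative, with HFD+EV replicate 1 and ND replicates 1 and 3 left out. Without ND replicates 1 and 3 the value was 1.89 for UQCR10, 0.06 for UQCRB and -0.92 for COX6C. Some marker sets moved with it: all 6 fibroblast markers (median -0.68) and all 4 atrial markers (median -1.12) were negative, as were 7 of 9 cardiomyocyte markers (median -0.16). Negative too were 4 of 5 macrophage markers (median -0.23) and 3 of 5 smooth muscle and pericyte markers (median -0.19). Others did not: 3 of 5 endothelial markers (median 0.036) and 3 of 4 lymphocyte markers tested (median 0.097) were positive. So were 2 of 2 adipocyte markers (median 0.12) and 2 of 2 red cell markers (median 0.21). Of the atrial markers SLN (-1.63) was high on HFD replicate 2 alone, and MYL4 had -0.055. MYL7, an atrial light chain gene, had -3.13 ± 0.82 (limma adjusted p = 0.572). None passed, and their part was not tested.

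Some genes had several probe sets. The 2 probe sets of ATP5J2 pointed the same way in all 4 comparisons of 2 groups, at 1.41 and 0.73 in HFD against ND. COX7A2, NDUFS8 and SDHAF1 each had 2 probe sets with identical values. For NDUFA6, an accessory subunit of the matrix arm, the probe set with the higher signal had 0.37 in HFD against ND and 0.39 in ND+EV against ND, while the other, just above the filter, had -0.40 and -0.52. For SDHD the dimmer probe set had -0.19 in ND+EV against ND, where the brighter had 0.26. Each gene is described above by the brightest of its probe sets.

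Of the genes counted apart 10 were tested. In this group, all 10 were higher in HFD than in ND, with a median of 0.26, and NDUFAF4 rose. Between ND+EV and ND 5 were higher and 5 lower, with a median of 0.0022. NDUFAF3, an assembly factor of complex I, had 6.51 on both HFD arrays, against 5.69, 6.17 and 6.08 in ND (0.53 ± 0.18, limma adjusted p = 0.111). NDUFA4L2, known as a gene induced by hypoxia, had 7.15, 7.45 and 7.51 in HFD+EV, 7.68 and 7.63 in HFD, 8.02, 7.01 and 7.82 in ND+EV and 5.70, 7.21 and 7.83 in ND. Its ND arrays spread from 5.70 to 7.83 and overlapped every other group, and no comparison of it passed.

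The subunits encoded in mitochondrial DNA did not share the low ND values. Of 13 such genes 8 were measured, and their mean deviation was 0.18, -0.062 and -0.18 in HFD+EV and -0.18 and -0.19 in HFD. It was 0.16, 0.0084 and 0.16 in ND+EV and 0.096, -0.12 and 0.12 in ND. The ND arrays thus lay within the range of the other groups. In HFD against ND 2 genes were higher and 6 lower, with a median of -0.21, and in ND+EV against ND 5 were higher and 3 lower, with a median of 0.089. COX1, the catalytic core of complex IV, differed by 0.0047 in HFD against ND, and CYTB, the core of complex III, by 0.10. None passed.

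**Figure D5:**
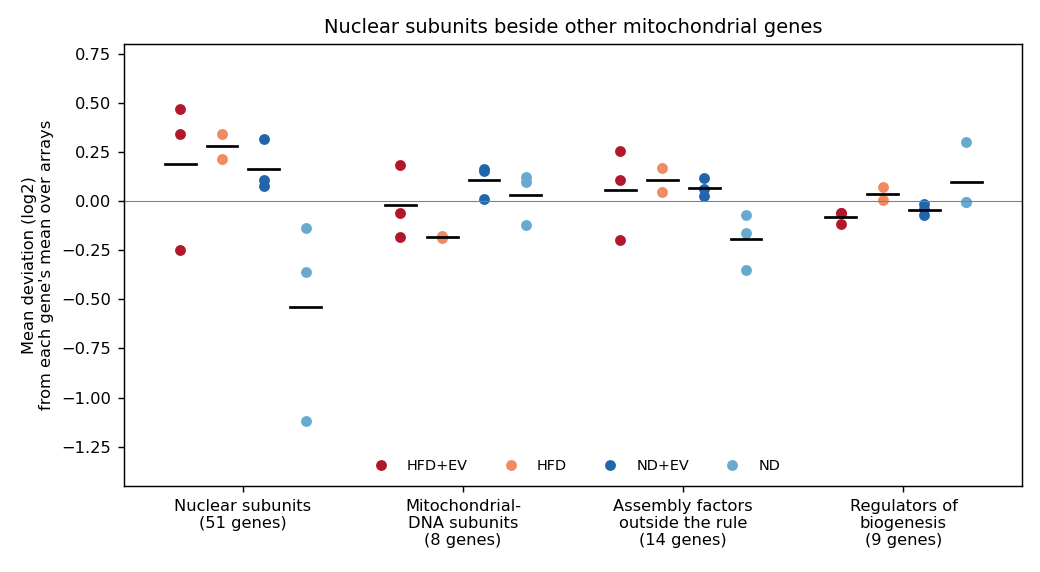
Mean deviation from each gene's mean over all arrays (log2, vertical axis) for the nuclear subunits, the mitochondrially encoded subunits, assembly factors outside the symbol rule and regulators of mitochondrial biogenesis, with a point for each array and a bar at the group mean, for HFD+EV, HFD, ND+EV and ND. The nuclear subunits spread from -1.12 to 0.47, and the mitochondrially encoded subunits from -0.19 to 0.18.

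Other genes of the pathway came from lists by function. Of 42 assembly factors outside the symbol rule 14 were measured, of which 11 were higher in HFD than in ND (median 0.32) and 10 higher in ND+EV than in ND (median 0.19). The widest was COX17, which carries copper to complex IV, at 1.29 in both comparisons (limma adjusted p = 0.108 and 0.546). COX17 had 9.08 and 8.99 in HFD, against 6.97, 8.60 and 7.67 in ND, so ND replicates 1 and 3 weighed on both differences. Of the electron carriers and partners 3 of 11 were tested, and all 3 were higher in HFD than in ND: USMG5, a small ATP synthase protein (1.55), ETFA, a subunit of the electron transfer flavoprotein (0.57), and ETFDH, which passes its electrons to ubiquinone (0.48). USMG5 had 11.08 and 10.99 in HFD, against 8.16, 10.11 and 10.17 in ND, so ND replicate 1 weighed on its difference. The differences of the genes in these lists are given with all arrays only. Of the regulators of mitochondrial biogenesis 9 were measured. Of these, 3 were higher and 6 lower in HFD than in ND (median -0.064), and 2 were higher and 7 lower in ND+EV than in ND (median -0.034). Among them TFAM, which packs and transcribes mitochondrial DNA, differed by 0.14 and -0.02, and ESRRA, a nuclear receptor of respiratory genes, by -0.20 and -0.03. None of the genes in these 3 lists passed.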

How the data were processed

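Total RNA (50 ng) of 11 samples was hybridised to Affymetrix whole-transcript arrays, per the labels. The values the authors deposited are normalized log2 signals, 1 per probe set and array, made with Transcriptome Analysis Console, per the submitters' processing notes. The sources used here do not give its version, the summary and normalization method or the build. The base of the logarithm was taken from the range of the values, 2.14 to 14.02.

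Of 27558 probe sets, 13157 had 1 symbol in the platform annotation, 523 several and 13878 none. By gene ID all 68 members were found in a current gene table, and 0 changed symbol. Differences came from lmFit and eBayes of limma 3.58.1 (R 4.3.3, 1 mean per group over 11 arrays, 7 residual and 3.62 prior degrees of freedom, two-sided). The scripts were tested on simulated data. A gene with several probe sets was given by its brightest one.

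Genes were named by a rule: every member past the threshold, the 2 subunit genes of each complex with the smallest unadjusted p in each of the 4 comparisons of 2 groups, 1 per complex for the difference of the EV effects, core subunits and tissue isoforms, members whose probe sets disagreed and the genes counted apart. NDUFA3, NDUFB7, ATP5L, NDUFC2, ATP5J2, ATP5O in HFD against ND, MYL7, and the pathway genes singled out, were chosen after their values were seen. The members and lists were chosen with earlier results of these data known. Core subunits and isoforms of the rule that are not named above were not analysed here. Alternatives were quantile normalization, cyclic loess, no filter or a stricter one, a trended and robust variance, array weights, fits of the compared groups alone, the replicate number as a block, 1 probe set per gene, and each array left out.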

Additional observations from a re-analysis of the deposited data

Results flagged for a closer look

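In 5 member genes the EV arrays lay on opposite sides of their controls under the 2 diets: all HFD+EV arrays were below both HFD arrays, while all ND+EV arrays were above all ND arrays. This direction was seen in 180 of 20668 probe sets (0.871%), and the reverse in 166 (0.803%) and in 0 members. In limma's test of the difference none of the 5 passed. The difference (EV effect under the high fat diet minus that under the normal diet) was -1.16 for ATP5F1 (SE 0.46, limma adjusted p = 0.572), from EV effects of -0.34 under the high fat diet and 0.82 under the normal diet. For NDUFC1 it was -0.98 (limma adjusted p = 0.572, effects -0.32 and 0.66), and for NDUFAF3 -0.73 (limma adjusted p = 0.572, effects -0.38 and 0.35). For NDUFS6, an accessory subunit of the matrix arm, it was -0.58 (limma adjusted p = 0.590, effects -0.26 and 0.32). For NDUFA12, another accessory subunit of that arm, it was -0.56 (limma adjusted p = 0.572, effects -0.23 and 0.33). Without ND replicates 1 and 3 the effects under the normal diet were smaller. They were 0.34 for ATP5F1, 0.41 for NDUFC1, 0.16 for NDUFAF3, 0.058 for NDUFS6 and 0.18 for NDUFA12. The differences were then -0.68, -0.73, -0.54, -0.32 and -0.42 in the same order. Opposite diet effects under the 2 injections were seen in 0 members, against 116 probe sets (0.561%).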

How the results depend on the processing

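In HFD against ND 152 probe sets passed, 3 of them members. Quantile normalization, cyclic loess, no low-signal filter, a trended and robust variance, array weights, fits of the compared groups alone and leaving out ND replicates 1 and 3, with or without HFD+EV replicate 1, gave 0 and 0. With 1 probe set per gene 329 passed, 8 of them members. Leaving out each array in turn gave 0 to 1356 probe sets and 0 to 23 members. Where HFD kept 1 array, it was assumed to vary like the other groups. In HFD+EV against ND+EV, array weights gave 10 probe sets, leaving out ND replicates 1 and 3 gave 2, and leaving out each array 0 to 2. Leaving out each array gave 0 to 2 in ND+EV against ND and 0 to 1 in HFD+EV against HFD and in the difference of the EV effects. In these 4 contrasts 0 members passed under any setting. The labels do not say that a replicate number pairs samples. Over 15 pairs sharing a number, r of the deviations from group means ran from -0.10 to 0.33, with 5 over 0.1. Pairs of unlike number were not computed, so these values cannot decide whether the numbers pair the samples. The fit with the replicate number as a block called 938 probe sets, 17 of them members, in HFD against ND.

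The median over the member probe sets in HFD against ND was 0.37 after cyclic loess and 0.37 without ND replicates 1 and 3. In ND+EV against ND it was 0.27 without ND replicates 1 and 3. For the difference of the EV effects it was -0.35 after cyclic loess and -0.22 with HFD+EV replicate 1 and ND replicates 1 and 3 left out. Leaving out each array, the medians ranged from 0.41 to 0.87 in HFD against ND, 0.33 to 0.78 in ND+EV against ND, -0.28 to 0.066 in HFD+EV against HFD, -0.073 to 0.19 in HFD+EV against ND+EV and -0.79 to -0.43 for the difference.

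Of the single-gene values 843 kept direction and call, 51 lost the call, 10 gained it and 14 turned sign. Most of the 843 had no call as reported and none under the setting. Only ATP5A1, NDUFS3 and NDUFAF4 in HFD against ND had a call to lose, and each lost it in 17 settings. SDHD in HFD+EV against ND+EV turned to -0.026 (quantile), -0.046 (cyclic loess), -0.029 (without HFD+EV replicate 2) and -0.078 (without ND+EV replicate 2). In HFD+EV against HFD, ATP5A1 turned to 0.0055 without HFD+EV replicate 1, UQCRB to -0.15 without HFD+EV replicate 2 and -0.13 without HFD replicate 2, and COX8H to -0.28 without HFD replicate 2. Without HFD+EV replicate 2, UQCRB and UQCR10 turned to -0.010 and -0.15 in HFD+EV against ND+EV. UQCR10 in HFD against ND turned to 0.10 without ND replicate 2. UQCRB in the difference turned to 0.058 without ND replicates 1 and 3 and to 0.33 with HFD+EV replicate 1 also left out. Leaving out each array, these values ranged from -0.078 to 0.15 for SDHD in HFD+EV against ND+EV, -0.48 to 0.0055 for ATP5A1, -0.15 to 0.34 for UQCRB and -0.28 to 0.65 for COX8H in HFD+EV against HFD. They ranged from -0.010 to 0.48 for UQCRB and -0.15 to 0.53 for UQCR10 in HFD+EV against ND+EV, and from -0.82 to 0.10 for UQCR10 in HFD against ND. The cause was not tested.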
